A study of Mus musculus with 4 samples.

Results

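Glycolysis and lactate dehydrogenase genes were examined in the transcriptome of mouse germinal vesicle (GV) oocytes of different chromatin configuration. The members were 10 genes chosen by symbol. These were the lactate dehydrogenase genes Ldha, Ldhb and Ldhc and the glycolytic genes Hk1, Gpi1, Pfkp, Aldoa, Gapdh, Pgk1 and Pkm. Of these, 9 are among the 16861 genes listed in the libraries, and Hk1 was not analysed here. GV oocytes came from antral follicles of 3-week-old female C57BL/6J mice, and their cumulus cells were stripped off by pipetting. They were sorted by Hoechst staining into non-surrounded nucleolus (NSN) oocytes, with diffuse chromatin, and surrounded nucleolus (SN) oocytes, whose chromatin forms a ring around the nucleolus. No genotype or treatment separates the groups, so the comparison asks how transcript levels differ between the configurations. Each library was made by Smart-seq2 from a pool of 15 oocytes, and 2 NSN and 2 SN libraries were analysed, whereas the protocol in the labels names 3 samples per group. Nothing states that the pools came from separate mice, so the p-values measure the spread between these libraries, which may be technical.

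Glycolysis splits glucose into pyruvate in the cytosol, and lactate dehydrogenase interconverts pyruvate and lactate. The enzyme is a tetramer whose subunits come from Ldha (muscle type), Ldhb (heart type) and Ldhc (germ cell type). Mouse oocytes use little glucose directly. They depend on pyruvate and related products handed over by the cumulus cells that surround them, and the oocyte enzyme is known to be rich in the heart-type subunit.

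Values are FPKM as the authors deposited them, in which read pairs are divided by gene length and by the library total. FPKM are shares of a library, so fewer transcripts of one gene per oocyte and more of the others cannot be told apart. The library totals recovered from the values were 17069772 to 17998361 read pairs. Differences are given as log2 fold changes of FPKM + 0.5, SN minus NSN, from limma over the 11672 genes whose FPKM averaged 0.5 or more. Calls required a fold of 1.2 or more together with an adjusted p (Benjamini-Hochberg) under 0.05. An unadjusted p of limma under 0.05 was reached by 31.7% of all genes tested. The median log2 fold change of all genes tested was 0.14, so changes are also given after median scaling, which brings this median to 0.005. Granulosa and cumulus markers were low in every library, except that Cyp19a1 was above the median of all genes tested (4.45 FPKM). Of 20 such genes, 11 are listed. Their summed level was 9.81 and 13.9 FPKM in the NSN and 14.2 and 14.1 FPKM in the SN libraries. Limma called 0 of the 4 tested, beside 7.93% of all genes tested, with 0 at an unadjusted p under 0.05. Of the 4 tested, 3 had a log2 fold change above 0 and 1 below. Foxl2, Inhbb, Amh, Amhr2, Fst, Ptx3, Tnfaip6, Nr5a1 and Wt1 are not among the listed genes. Cyp19a1 held most of the sum with 5.81 to 8.38 FPKM. Of 8 blood and stromal markers only Pecam1 is listed, at 4.49 to 4.96 FPKM. All 12 oocyte markers are listed, with H1f8 and Zp3 at the top of them. Their summed level was 34653 and 34174 FPKM in the NSN and 26214 and 24424 FPKM in the SN libraries, and 8 of them were called lower in SN oocytes (Zp1, Zp2, Zp3, Gdf9, Bmp15, Nlrp5, Ddx4 and Padi6), against 1.98% of all genes tested. The part of this shift in the results below was not tested.

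The sequences of the lactate dehydrogenase genes are shown because these genes differ the most in level, and Ldhc also in response. Each window runs from 250 bases before to 50 bases after a RefSeq start of the gene on GRCm38.p6. The table has 2 starts for Ldha and for Ldhc, of which the first is shown, and the start used in oocytes was not examined. Capitals mark matches, on either strand, to short motifs. The motif ACGTG and its variant GCGTG form the core of hypoxia response elements. The core of Sp1 sites is GGGCGG, that of the box named for its letters is TATAAA, and TGACG is part of cAMP response elements. Matches on opposite strands can overlap, as in a palindrome, and each is counted.
Ldha, chr7:46845554-46845853, plus strand: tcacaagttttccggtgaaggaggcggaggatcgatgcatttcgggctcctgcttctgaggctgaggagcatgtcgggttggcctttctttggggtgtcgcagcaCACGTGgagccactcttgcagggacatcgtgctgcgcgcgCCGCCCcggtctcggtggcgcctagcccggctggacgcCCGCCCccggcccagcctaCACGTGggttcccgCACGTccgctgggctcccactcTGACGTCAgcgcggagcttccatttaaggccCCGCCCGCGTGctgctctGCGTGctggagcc
Ldhb, chr6:142507908-142508207, minus strand: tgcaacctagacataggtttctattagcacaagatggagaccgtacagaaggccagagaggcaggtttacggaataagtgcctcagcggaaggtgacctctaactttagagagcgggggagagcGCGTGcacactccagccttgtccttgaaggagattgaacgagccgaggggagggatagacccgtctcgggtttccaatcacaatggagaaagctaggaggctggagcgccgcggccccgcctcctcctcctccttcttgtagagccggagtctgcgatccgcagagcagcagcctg
Ldhc, chr7:46861013-46861312, plus strand: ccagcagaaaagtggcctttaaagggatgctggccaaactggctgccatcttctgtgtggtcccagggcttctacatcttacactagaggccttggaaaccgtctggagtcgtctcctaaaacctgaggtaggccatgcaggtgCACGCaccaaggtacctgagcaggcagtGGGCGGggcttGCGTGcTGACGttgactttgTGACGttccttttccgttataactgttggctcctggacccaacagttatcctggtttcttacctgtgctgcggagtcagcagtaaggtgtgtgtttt
The Ldha window holds 5 matches to ACGTG, 2 to GCGTG, 3 to GGGCGG and 2 to TGACG. The Ldhb window holds 1 match to GCGTG and no match to the other motifs. In the Ldhc window there are 2 matches to GCGTG, 1 to GGGCGG and 2 to TGACG. Over 27025 mouse promoter windows of this length, 19.7% hold ACGTG, 32.5% GCGTG, 35.9% GGGCGG, 14.2% TATAAA and 21.0% TGACG. These matches describe letters only. The GC content was 67.3% for Ldha, 57.3% for Ldhb and 53.3% for Ldhc. The window of the second start differs from the first for both genes that have one. For Ldha it holds 2 matches to GCGTG, 1 to TGACG and none to the other motifs, at a GC content of 56.7%. For Ldhc it holds no match to any of these motifs, at 57.3%.

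The study also measured Ldhc by RT-PCR with Gapdh as reference, and the primers are shown because they say which transcripts such a ratio compares. Capitals mark the bases that lie in exon 3 of the transcript (Ldhc-201 or Gapdh-203), and the other bases lie in exon 2.
Ldhc forward: ggaagataaactttcccggtgt
Ldhc reverse: TTCATCAGCCAAACCcttcag
Gapdh forward: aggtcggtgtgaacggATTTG
Gapdh reverse: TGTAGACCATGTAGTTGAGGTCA
All 4 primers lie in coding sequence. The Ldhc forward primer maps to chr7:46511235-46511256 of GRCm39 and the reverse primer to chr7:46511314-46511319 and chr7:46515833-46515847. They enclose 100 bases and match transcripts of 1 annotated gene. The Gapdh forward primer maps to chr6:125142234-125142249 and chr6:125140395-125140399, and the reverse primer to chr6:125140293-125140315, for a product of 123 bases. Both Gapdh primers are found without mismatch in transcripts of 48 annotated genes, Gapdh included. Of these, 9 are listed in the libraries, and the other 8 had between 0.0558 and 1.40 FPKM, against 40.1 to 53.7 FPKM for Gapdh itself. Read pairs that fit several of these genes equally well may have missed the mapping quality the authors required. The FPKM of Gapdh and of its copies are therefore uncertain, and they do not show how much the copies add to the RT-PCR product.

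The members spanned more than 4 orders of magnitude in FPKM, as the plot of FPKM by gene shows. Ldhb was far above the rest and ranked 6 among all 16861 listed genes by mean FPKM. Pkm followed at rank 537, Gapdh at 1317, Ldhc at 2262, Gpi1 at 2553, Aldoa at 2583, Pgk1 at 3070, Pfkp at 8615 and Ldha at 12173. Some neighbours in this order did not differ beyond their spread. Gapdh was above Ldhc within each library, but the lowest Gapdh value (40.1) was below the highest Ldhc value (41.4). Ldhc was above Gpi1 in both NSN libraries and below it in both SN libraries. Gpi1 and Aldoa overlapped, and each was the higher in 2 of the 4 libraries. The median over all genes tested was 4.45 FPKM, so that 7 of the 9 listed members lay above it.

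**Figure D1:**
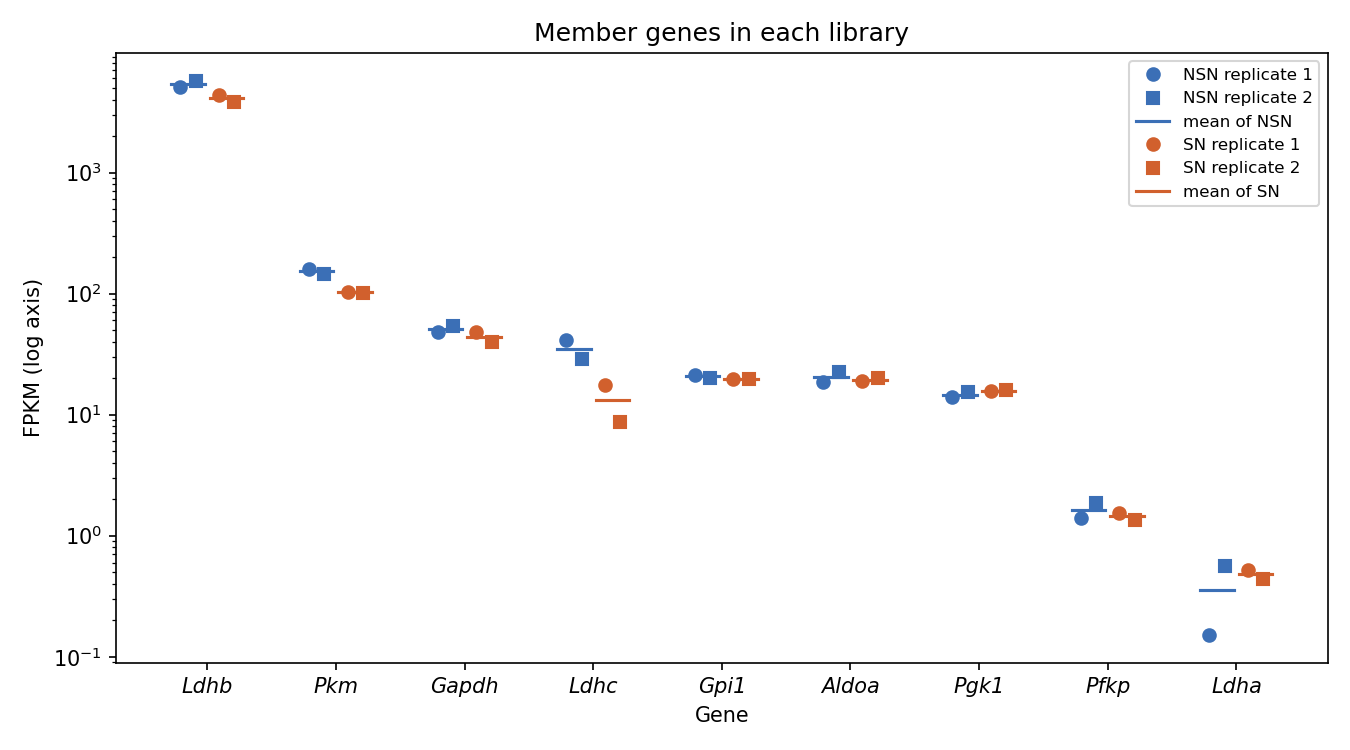
FPKM (log axis) of the 9 listed members in each library, with NSN in blue, SN in orange, circles for replicate 1, squares for replicate 2 and a line at each group mean. Ldhb lies at 3863 to 5738 FPKM and Ldha below 1 FPKM, and the groups stand furthest apart for Ldhc.

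The members tested leaned lower in SN oocytes. Of the 8 members tested, 2 were called, Pkm and Ldhc, and both fell, against 7.93% of all genes tested called in either direction and 1.98% called lower. The log2 fold change was below 0 for 7 of the 8, against 33.3% of all genes tested, and their median was -0.17 against 0.14. On the deposited FPKM the SN libraries were both below the NSN libraries for 5 of the 8 (Ldhb, Ldhc, Pkm, Gapdh and Gpi1), against 17.8% of all genes tested. Pgk1 showed the opposite order, as did 44.8% of all genes, and Pfkp and Aldoa overlapped. After median scaling all 8 lay lower in both SN libraries, against 30.1% of all genes. Pgk1 was among them only by a margin of 15.25 FPKM (SN replicate 2) against 15.28 FPKM (NSN replicate 1). On this scale Pkm alone was called, against 2.2% of all genes. The plot of member fold changes gives both scalings.

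**Figure D2:**
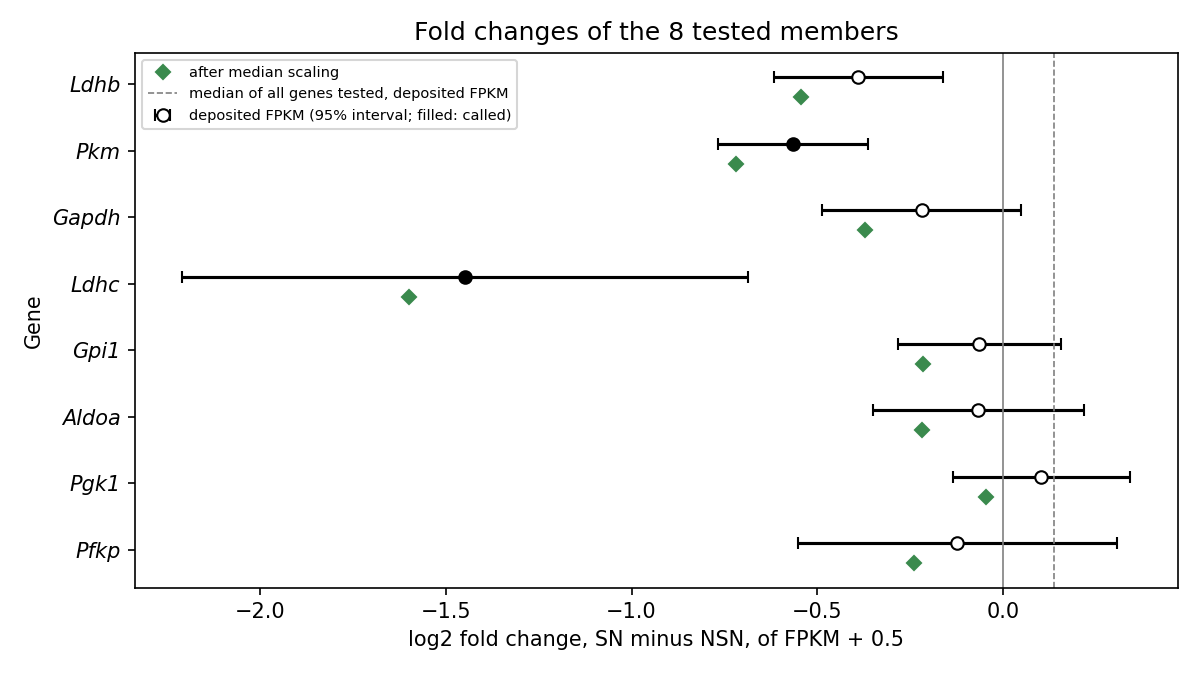
Log2 fold changes, SN minus NSN, of the 8 tested members, as circles with 95% intervals on the deposited FPKM (filled where called) and as green diamonds after median scaling. The dashed line is the median of all genes tested, 0.14, and all 8 members lie to its left.

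Ldhb, the heart-type subunit gene (ENSMUSG00000030246.14, chromosome 6 of GRCm39 from 142435672 to 142454586, minus strand), had 5088 and 5738 FPKM in the NSN and 4408 and 3863 FPKM in the SN libraries. Both SN values were below both NSN values. The group means were 5413 ± 459.6 and 4136 ± 385 FPKM (SD, n = 2). Its log2 fold change was -0.39 (standard error 0.10, 95% interval -0.62 to -0.16) and missed the threshold (limma adjusted p = 0.056). It became -0.05 after quantile normalisation, which gives the most abundant ranks the same value in every library, and -0.54 after median scaling (limma adjusted p = 0.73 and 0.056). The gene passed when the minimum mean was set to 5 FPKM (limma adjusted p = 0.025), where 1496 of 5519 genes were called. It also passed with voom run on read pairs (limma adjusted p = 0.0040), where 2297 of 11660 genes were called. The settings used called 7.93% of all genes tested. Without SN replicate 1 the log2 fold change of Ldhb was -0.48.

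This gene alone took 115506 and 134022 read pairs in the NSN and 98117 and 90674 read pairs in the SN libraries. These were 0.663% (Wilson 95% interval 0.660% to 0.667%), 0.748% (0.744% to 0.752%), 0.575% (0.571% to 0.578%) and 0.504% (0.501% to 0.507%) of all read pairs. The intervals are narrower than the gaps between replicates and cover the error of counting alone, because read pairs amplified by PCR are not separate molecules. No exon of Ldhb overlaps another annotated gene. The row Ldhb-ps, named as a pseudogene of Ldhb, had 13.0 and 17.9 FPKM in the NSN and 10.1 and 9.65 FPKM in the SN libraries, the same order of libraries as Ldhb. Reads can be shared between the copy and Ldhb, and so the values of the copy are uncertain.

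Ldhc (ENSMUSG00000030851.17, chromosome 7 from 46509777 to 46527794, plus strand), the germ cell subunit gene, fell the most. It had 41.4 and 28.9 FPKM in the NSN and 17.6 and 8.64 FPKM in the SN libraries, on 987, 710, 412 and 213 read pairs. The groups did not overlap, but the replicates of each group differed by a wide margin, with SN replicate 2 the lowest. The fall was 2.73-fold, a log2 fold change of -1.45 (standard error 0.32, 95% interval -2.21 to -0.69, limma adjusted p = 0.047). The call was lost after median scaling (log2 fold change -1.60, limma adjusted p = 0.060). It was also lost without NSN replicate 1 (-1.19) and without SN replicate 2 (-0.95), where the lone library of a group is assumed to vary like the other group. Those fits called fewer genes over all. Of the exonic bases of Ldhc in the later annotation used here, 19.3% are shared with Gm39011, an antisense lncRNA gene. As the authors counted without strand, read pairs in shared bases may have been left uncounted or given to the wrong gene.

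Ldha (ENSMUSG00000063229.17, chromosome 7 from 46490899 to 46505061, plus strand), the muscle-type subunit gene and a direct neighbour of Ldhc, was barely detected. It had 0.152 and 0.560 FPKM in the NSN and 0.526 and 0.440 FPKM in the SN libraries, from 5, 19, 17 and 15 read pairs. The groups overlapped, and 3 read pairs would already give 0.0880 to 0.0927 FPKM. Its mean was below 0.5 FPKM, so it was left out of the test. With all listed genes in the fit its log2 fold change was 0.24 (limma adjusted p = 0.59), and a difference was not detectable at this depth. Some 13.8% of its exonic bases are shared with other annotated genes.

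The balance of the 3 subunit genes was set by Ldhb in every library. It made up 99.19% and 99.49% of the summed lactate dehydrogenase FPKM in the NSN and 99.59% and 99.77% in the SN libraries. The share was 0.338 percentage points higher in SN, with the SN libraries above the NSN libraries. The exact permutation test gave a two-sided p of 0.333, the smallest that 2 libraries against 2 allow, and this holds for every ratio given here with groups that do not overlap. Ldhc supplied 0.807% and 0.502% of the sum in the NSN and 0.398% and 0.223% in the SN libraries. The contribution of Ldha was 0.00295%, 0.00971%, 0.0119% and 0.0114% in the same order. Ldhb exceeded Ldhc by 123-fold and 198-fold in the NSN and by 250.2-fold and 447-fold in the SN libraries. Its excess over Pkm was 31.6-fold and 39.8-fold in NSN and 42.4-fold and 37.9-fold in SN oocytes, and here the groups overlapped (two-sided exact permutation p = 0.667).

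Pkm (ENSMUSG00000032294.19, chromosome 9 from 59563364 to 59586663, plus strand) encodes the pyruvate kinase that makes pyruvate in the last step of glycolysis. It had 161 and 144 FPKM in the NSN and 104 and 102 FPKM in the SN libraries, from 7287, 6708, 4607 and 4763 read pairs. The groups were clearly apart and the SN replicates lay close together. The group means were 153 ± 12.0 and 103 ± 1.43 FPKM (SD, n = 2). Pkm fell 1.48-fold, a log2 fold change of -0.56 (standard error 0.08, 95% interval -0.77 to -0.36, limma adjusted p = 0.036). The call held after median scaling (-0.72, limma adjusted p = 0.045). It was lost without NSN replicate 1 (-0.48), SN replicate 1 (-0.58) or SN replicate 2 (-0.55), in fits that called fewer genes over all. In the annotation used here 40.6% of the exonic bases of Pkm are shared with other genes, among them several antisense lncRNA genes.

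**Figure D3:**
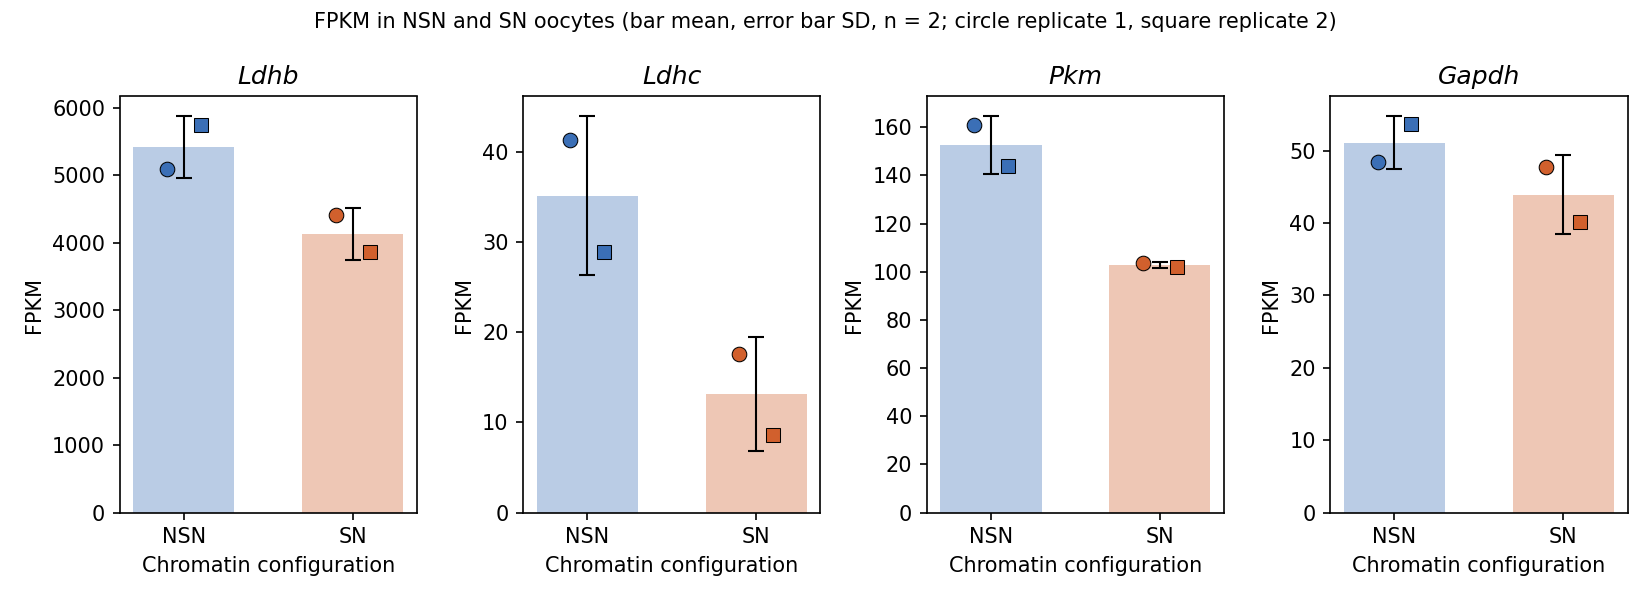
FPKM of Ldhb, Ldhc, Pkm and Gapdh in NSN (blue) and SN (orange) oocytes, with bars at the mean, error bars of 1 SD (n = 2) and points for the libraries (circle replicate 1, square replicate 2). Both SN points lie below both NSN points in each panel, by the smallest margin for Gapdh (47.8 against 48.5 FPKM).

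Gapdh (ENSMUSG00000057666.20, chromosome 6 from 125135289 to 125143518, minus strand) encodes the dehydrogenase that oxidises glyceraldehyde 3-phosphate, and is in wide use as a reference gene. It had 48.5 and 53.7 FPKM in the NSN and 47.8 and 40.1 FPKM in the SN libraries, so that SN replicate 2 stood lower than the rest. Its log2 fold change of -0.22 (95% interval -0.49 to 0.05) did not pass the test (limma adjusted p = 0.23). After median scaling it was -0.37 (limma adjusted p = 0.088). Voom with median scaling called Gapdh (limma adjusted p = 0.035), beside 1706 of 11660 genes over all. Of the exonic bases of Gapdh, 41.6% are shared with Iffo1, which lies on the opposite strand.

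Taking Gapdh as the reference of the same library, as in an RT-PCR design, left Ldhc lower in SN oocytes. The log2 ratio of Ldhc to Gapdh was -0.23 and -0.89 in the NSN and -1.44 and -2.21 in the SN libraries, a difference of -1.27 between the group means (two-sided exact permutation p = 0.333). A ratio of this kind does not depend on how a library is scaled, but it does depend on the reference. Over the 9 listed genes of a list of RT-PCR references other than Gapdh, the difference of the log2 ratio of Ldhc ranged from -2.21 with B2m to -0.65 with H2az1. Ldhc was lower in both SN libraries with 8 of the 9, all but Ppia. Of these 9 references 3 were called, beside 7.93% of all genes tested. They were B2m, higher in SN oocytes (log2 fold change 0.71), and Ppia (-0.78) and H2az1 (-0.82), both lower. The most abundant of the 9, Rplp0 and Ywhaz, had log2 fold changes of -0.06 and 0.17 and were not called.

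The remaining members act in the middle and upper part of the pathway. Limma called 0 of these 4 genes, beside 7.93% of all genes tested, with 0 at an unadjusted p under 0.05, beside 31.7%. Voom on read pairs called 0 as well, beside 2297 of 11660 genes over all. Gpi1 (ENSMUSG00000036427.7, chromosome 7 from 33900755 to 33929780), the isomerase of glucose 6-phosphate, had 21.2 and 20.2 FPKM in the NSN and 19.8 and 19.7 FPKM in the SN libraries. The SN values were lower, by a gap smaller than that between the NSN replicates (log2 fold change -0.06, 95% interval -0.28 to 0.16, limma adjusted p = 0.67). Pfkp (ENSMUSG00000021196.16, chromosome 13 from 6629798 to 6698970) encodes the platelet type of phosphofructokinase, which commits sugar to glycolysis. It had 1.40 and 1.86 FPKM in the NSN and 1.55 and 1.34 FPKM in the SN libraries, from 104 to 143 read pairs. These groups overlapped (log2 fold change -0.12, 95% interval -0.55 to 0.31, limma adjusted p = 0.67). Of the exonic bases of Pfkp, 11.1% are shared with Pitrm1, which lies on the opposite strand.

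Aldoa (ENSMUSG00000030695.18, chromosome 7 from 126393822 to 126399923) encodes aldolase, which cleaves the phosphorylated sugar. It had 18.5 and 22.4 FPKM in the NSN and 18.9 and 20.0 FPKM in the SN libraries, so the SN values lay between the NSN replicates (log2 fold change -0.07, 95% interval -0.35 to 0.22, limma adjusted p = 0.74). As much as 43.8% of its exonic bases are shared with Gm57854 and Tlcd3b. Pgk1 (ENSMUSG00000062070.14, chromosome X from 105230706 to 105247305), the kinase of an ATP-yielding step, had 14.0 and 15.3 FPKM in the NSN and 15.6 and 16.0 FPKM in the SN libraries. It was the only tested member with a log2 fold change above 0 (0.10, 95% interval -0.13 to 0.34, limma adjusted p = 0.50), and this turned to -0.0453 after median scaling and -0.0913 after quantile normalisation. The related row Pgk1-rs7 had 0.229 and 0.267 FPKM in the NSN and 0.420 and 0.310 FPKM in the SN libraries.

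Seen by step, the levels were uneven along the pathway. FPKM were summed over the listed genes of each of 11 steps from glucose to lactate, with Hk2 and Adpgk standing for the phosphorylation of glucose. The bisphosphoglycerate mutase gene Bpgm, with 2018 to 2390 FPKM, and Ldhd, with 10.2 to 15.2 FPKM, were placed in no step. Without them, the lowest sums belonged to phosphoglycerate mutase (Pgam1 alone, 1.41 to 2.14 FPKM) and phosphofructokinase (Pfkl, Pfkm and Pfkp, 4.03 to 5.45 FPKM). The highest were those of pyruvate kinase (102 to 161 FPKM) and lactate dehydrogenase (3873 to 5768 FPKM), at the end of the pathway. Nearly all of the sum for glucose phosphorylation came from Adpgk, an ADP-dependent kinase of glucose, with 51.3 and 42.3 FPKM in the NSN and 36.7 and 35.2 FPKM in the SN libraries (log2 fold change -0.37, limma adjusted p = 0.082). Some 3.0% of its exonic bases are shared with Bbs4. Hk2 was at 0.143 to 0.228 FPKM, and with Hk1 not analysed here the sum of this step is incomplete.

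**Figure D4:**
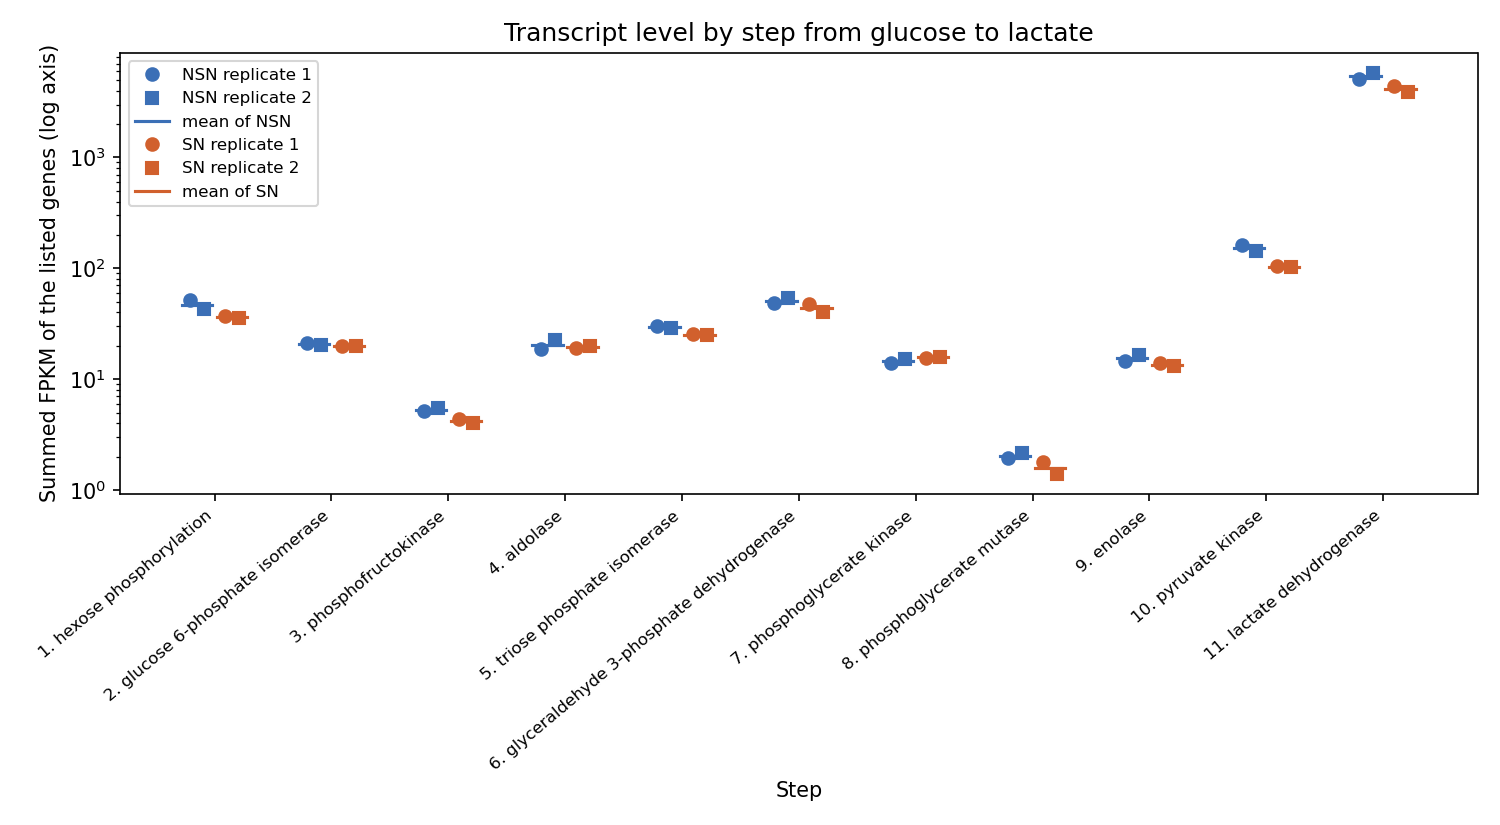
Summed FPKM (log axis) of the listed genes of 11 steps from glucose to lactate in each library, with NSN in blue, SN in orange and a line at each group mean. Bpgm and Ldhd are in none of the steps. The levels shown stay between 1.41 and 53.7 FPKM up to enolase and reach 3873 to 5768 FPKM at lactate dehydrogenase.

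The other genes of glycolysis leaned the same way as the members, without a call by limma on the deposited FPKM. Of 22 other enzyme genes 11 are listed and 8 were tested, and all 8 had a log2 fold change below 0, from -0.41 to -0.20. Among the 8 are Bpgm and Ldhd, which were placed in no step from glucose to lactate. Limma called 0 of the 8, beside 7.93% of all genes tested, with 4 at an unadjusted p under 0.05, beside 31.7%. Adpgk was called lower by limma with a minimum mean of 5 FPKM and by voom on read pairs. Over all genes these settings called 1496 of 5519 and 2297 of 11660. Voom with median scaling called 5 of the 8, all lower, namely Adpgk, Bpgm, Eno1, Ldhd and Tpi1. Over all genes this setting called 1706 of 11660, of which 962 were lower. The most abundant was Bpgm, the bisphosphoglycerate mutase known from red blood cells, with 2388 and 2390.1 FPKM in the NSN and 2086 and 2018 FPKM in the SN libraries. Both SN libraries were lower, and the log2 fold change of -0.22 (standard error 0.07) was not called on the deposited FPKM (limma adjusted p = 0.081). With the members, 15 of 16 enzymes tested were below 0 on the deposited FPKM and 16 after median scaling, against 33.3% and 49.4% of all genes tested. Their median log2 fold changes on these scales were -0.25 and -0.38.

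Genes around glycolysis were taken from 8 lists with 92 genes, the other enzymes included, of which 72 are listed and 58 were tested. Of the 58, 1 was called, G6pdx, which is 1.72% beside the 7.93% of all genes. This gene, the dehydrogenase at the entry of the pentose phosphate pathway, had 397 and 354 FPKM in the NSN and 262 and 267 FPKM in the SN libraries. It fell by 0.50 on the log2 scale (standard error 0.08, with a limma adjusted p = 0.036), and its groups were well apart. Of its exonic bases 8.1% are shared with Ikbkg on the opposite strand. It was also called after median scaling, but not without NSN replicate 1, SN replicate 1 or SN replicate 2. Those fits leave 1 library in a group and called fewer genes over all.

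For some of the other lists, whether most genes lay above or below 0 depended on the scale. Of all genes tested, 66.7% were above 0 on the deposited FPKM. In the tricarboxylic acid cycle 8 of 15 genes tested were above 0, and 8 were below 0 after median scaling. Its most abundant genes Sdhd and Sucla2 had log2 fold changes of 0.24 and 0.23, neither called (limma adjusted p = 0.080 and 0.090). In the pyruvate dehydrogenase complex and its regulators 7 of 10 were above 0, with Dld at 0.10 and Pdhb at 0.11, but 9 of 10 were below 0 after median scaling. The 5 tested regulators of glycolysis were all above 0, among them Hif1a, the oxygen-regulated transcription factor subunit, with 0.29 (limma adjusted p = 0.091), and Tigar with 0.11. After median scaling 3 of these 5 were below 0, Tigar included. The 5 tested transport genes ran from -0.33 for the glucose carrier Slc2a1 to 0.49 for the lactate carrier Slc16a1, with 3 above 0 on both scales. Among them Bsg, a chaperone of lactate carriers, was at -0.11, and Mpc1 and Mpc2, the subunits of the mitochondrial pyruvate carrier, were at 0.23 and 0.30. In the malate-aspartate shuttle 5 of 6 were above 0, with 0.12 for Mdh1 and 0.30 for Slc25a13, and 4 of 6 were below 0 after median scaling.

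Limma called 0 of the genes of these 5 lists, beside 7.93% of all genes tested. An unadjusted p under 0.05 was reached by 3 of 15 genes of the cycle, 3 of 5 of transport and 2 of 6 of the shuttle. It was reached by 1 of 5 regulators and 0 of 10 genes of the pyruvate dehydrogenase list, beside 31.7% of all genes tested. The calls of voom also moved with the scale. On unscaled read pairs it called Hif1a and Slc16a1 higher and Dlst lower, beside 2297 of 11660 genes over all (1763 higher, 534 lower). With median scaling it called Dlst, Idh3a, Mdh2, Pdhx, Got1 and Slc2a1, all lower, and neither Hif1a nor Slc16a1, beside 1706 of 11660 genes over all (744 higher, 962 lower). The gluconeogenic Fbp1 and Fbp2 were at 0.07 and -0.02. In the pentose phosphate pathway 4 of 6 were below 0 on both scales, with Taldo1 at -0.17. The list medians were -0.27 for the other enzymes, -0.12 for the pentose phosphate pathway and between 0.02 and 0.23 for the remaining lists, and 0.14 is the median of all genes tested.

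**Figure D5:**
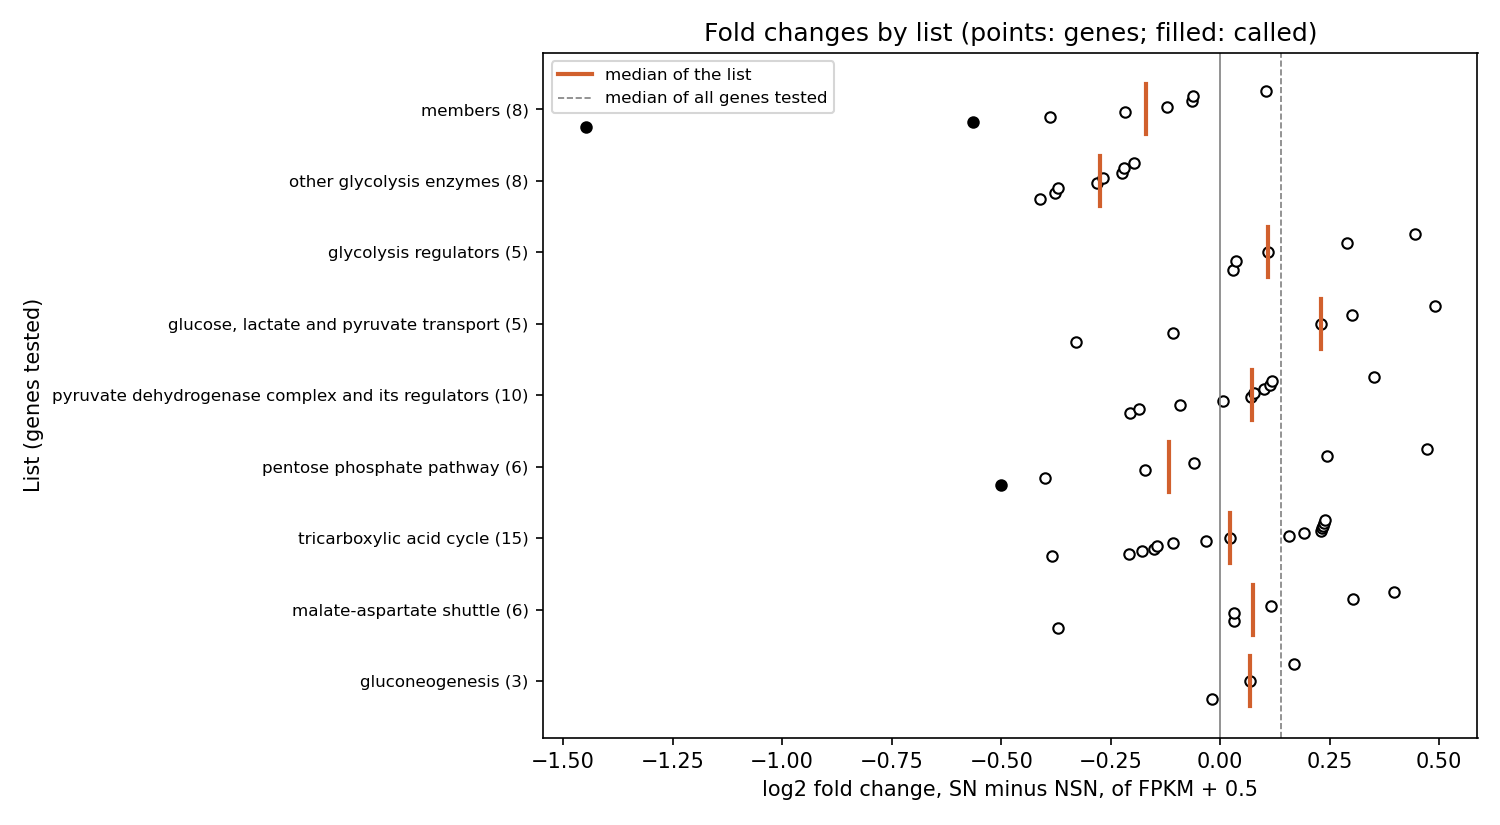
Log2 fold changes, SN minus NSN, of the tested genes of each list, with filled points where called and an orange bar at the list median. The medians of the members (-0.17) and of the other glycolysis enzymes (-0.27) lie left of 0 and of the dashed median of all genes tested (0.14).

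The genes with the profile most like that of Ldhc over the 4 libraries, by Euclidean distance of the centred log2 values, were Gin1 (distance 0.13), Tgif1 (0.17), Gm43622 (0.21), Dusp2 (0.26) and Gykl1 (0.27). All had values that were lower in both SN libraries and lowest in SN replicate 2, as Ldhc did. For Gapdh they were Dtd2 (0.023), Gins3 (0.029), Pramel34 (0.033), Shc1 (0.035) and Clpx (0.049). Limma called 0 of these, beside 7.93% of all genes tested, with 0 at an unadjusted p under 0.05, beside 31.7%. With 4 libraries many genes share such a profile, so the lists describe likeness only.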

How the data were processed

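RNA was measured by Smart-seq2 (18 PCR cycles) in 2 NSN and 2 SN libraries of 15 GV oocytes. The authors trimmed reads with Trim Galore 0.6.10, mapped them to GRCm39 with HISAT2 and counted read pairs on GENCODE exons with featureCounts (mapping quality of at least 10, primary alignments, no strand). The authors deposited FPKM from a custom script, without counts, and their own DESeq2 comparison was not used here. Whole read pairs were recovered from the FPKM for 99.89% of the genes (tolerance 0.001), with totals from 5 mitochondrial tRNA genes. Counting errors follow from these read pairs.

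Here log2(FPKM + 0.5) was compared with limma 3.58.1 in R 4.3.3 (trend of the variance, Benjamini-Hochberg adjustment over 11672 genes). The procedure was tested on simulated read pairs that had no shift between the groups over all genes. These data have such a shift, so the simulation does not cover the choice of scale. It also set the same variation beyond counting for every gene, so replicates as far apart as those of Ldhc are not covered. Single ratios were compared by exact permutation tests, two-sided. Python 3.11.15, scipy 1.17.1 and matplotlib 3.10.9 were used for the other values. Gene positions came from a later GENCODE release on GRCm39, promoter windows from RefSeq, and primers from the study's primer list. Since oligo-dT priming and exon overlap affect FPKM, overlaps are stated beside the members, G6pdx and Adpgk, except Gpi1 and Pgk1, whose share was 0.0%. These overlaps are shares of the exonic bases of the later release, not of the bases behind the deposited FPKM. For Ldhc the release has 2405 exonic bases, against a length of 1370 recovered from the FPKM.

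The members, lists and tests were chosen with earlier results of these data known. Named were all members, the called genes and the 2 most abundant genes of each other list, the 5 profiles nearest to Ldhc and Gapdh, and rows named as copies of members. Chosen beyond this rule, after their values were seen, were genes called by voom, Mpc1 and the genes of single steps. The other genes of the lists are given as counts, and some genes are not reported here. Alternatives were a pseudocount of 0.1 or 1, a minimum mean FPKM of 5 or none, median scaling, quantile normalisation, no variance trend, a replicate block, voom on read pairs, an adjusted p alone, and each library left out.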

Additional observations from a re-analysis of the deposited data

How the results depend on the processing

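The members gave 2 calls in the report. There was 1 with a pseudocount of 0.1, median scaling or quantile normalisation (Pkm each time), 4 with voom and median scaling (with Ldhb and Gapdh added), and 0 without a filter on low values, without the trend of the variance and with median scaling and the replicate block, where limma made 0 calls over all genes (4092, 3449 and 2831 at an unadjusted p under 0.05). With each library left out it was 0 to 2. Of the other pathway genes, 1 was called with the settings used, 1 with the replicate block (G6pdx both times), 4 with a minimum mean of 5 FPKM, 5 with voom, 12 with voom and median scaling, and 0 with the same 3 settings as for the members. With each library left out it was 0 to 3. Over all genes, 926 of 11672 were called with the settings used, 695 higher and 231 lower. There were 257 calls after median scaling (78 higher, 179 lower) and 230 after quantile normalisation (74 higher, 156 lower). A minimum mean of 5 FPKM gave 1496 calls among 5519 genes. Among 11660 genes voom gave 2297 calls, and 1706 with median scaling. Leaving out a library gave 0 (without NSN replicate 1, with 2278 at an unadjusted p under 0.05) to 1685 calls (without NSN replicate 2). The replicate block gave 422 calls over all genes and the same 2 members, Ldhc and Pkm. The replicate differences of NSN and SN had a correlation of -0.07 across genes, and nothing ties the numbers to a batch, so the libraries share only a number.

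The log2 fold change of Pgk1 changed sign, to -0.0453 after median scaling (with or without the replicate block), -0.0471 with voom and median scaling and -0.0913 after quantile normalisation. With each library left out, that of Aldoa ranged from -0.201 to 0.0697 and that of Pfkp from -0.277 to 0.0322, above 0 only without NSN replicate 2. None of these was called. The same ranges were -1.94 to -0.95 for Ldhc, -0.64 to -0.48 for Pkm, -0.48 to -0.29 for Ldhb and -0.34 to -0.09 for Gapdh. The share of Ldhb was higher in SN by 0.189 to 0.488 percentage points, and the log2 ratio of Ldhc to Gapdh differed by -1.65 to -0.88. Where a result moved, the cause was not tested. Depth limits Ldha, with at most 19 read pairs.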
